A study of Mus musculus with 2 samples.

Results

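The RNA of 10 genes of secreted matrix proteins was followed in 2 single-cell libraries of cultured mouse epidermal cells. They were fibronectin (Fn1), tenascin-C (Tnc), periostin (Postn), fibulin 1 (Fbln1), thrombospondin 1 (Thbs1), 3 CCN proteins (Ccn1, Ccn2 and Ccn4), osteopontin (Spp1) and SPARC (Sparc). The 10 genes were 10 of the 36528 NCBI gene identifiers of the count tables, and each was found in both libraries. They were chosen by name with measured values of these same libraries already known, so the differences between the libraries below are a description and carry no test.

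Both pools of epidermal cells came from C57BL/6 mice on postnatal day 1. The library labelled wild type (Bap1_WT) came from 11 pooled Rosa26-CreERT2 neonates, and the library labelled knockout (Bap1_KO) from 9 pooled Bap1 fl/fl Rosa26-CreERT2 neonates. CreERT2 is a recombinase that 4-hydroxytamoxifen (4-OHT) switches on, and its Rosa26 locus is active in most cell types rather than in keratinocytes alone. Deletion was not measured in any class of cells. Both pools carried CreERT2 and both received 100 nM 4-OHT for 4 days, followed by 3 days without it, in medium M254 with human melanocyte growth supplement. After these 7 days in culture, about 6000 viable cells of each pool were loaded for droplet sequencing of RNA 3′ ends with molecular identifiers (UMIs), which count captured molecules. The animals of a pool cannot be told apart, so each genotype is 1 sample.

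The deposited tables held 1926 cells labelled wild type with 77579465 UMIs and 1760 cells labelled knockout with 64954113 UMIs, with medians of 37223 and 33585 UMIs per cell. After filtering, 1911 and 1739 cells were kept, and 3 cell barcodes occurred in both libraries. Bap1, the gene of a nuclear deubiquitinase, gave 1087 UMIs in the kept cells labelled wild type and 1279 UMIs in those labelled knockout. As CPM, the count scaled to 1000000 UMIs of the cells summed, this was 14.0 and 19.8. A 3′ count outside the deleted part of the gene checks no deletion, and the direction of every difference rests on the labels alone. Levels are summed UMIs of a class of cells in CPM of that class. Ratios are of the library labelled knockout over the library labelled wild type, on the log2 scale, with exact 95% intervals that cover counting error only and not the spread between animals or cultures.

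Clustering without the 10 genes gave 11 clusters, and the cell class names were rebuilt from markers. Clusters 0 to 5 and 7 were called keratin-rich, with 1751 and 1598 cells. This was the default name where no marker set reached 3 markers at 5-fold, or where keratinocyte or cycling sets led. No keratin level was required. Clusters 1, 3, 5 and 7 had no marker at 5-fold, and cluster 2 had only the smooth muscle marker Cnn1. Cluster 0 was led by suprabasal and wound keratinocyte genes, with 7 of 10 suprabasal and 5 of 7 wound markers at least 5-fold above the mean of the other clusters, and cluster 4 by genes of cycling cells, with 7 of 8 such markers. Different clusters held most keratin-rich cells of each library. Cluster 1, led by Ccl20, Cxcl5 and Igfbp3, held 750 cells (42.8%) labelled wild type and 53 (3.32%) labelled knockout. Cluster 3, led by Obp2a, Nupr1 and Gdf15, held 23 (1.31%) and 712 (44.6%), so clusters 1 and 3 may each stand for 1 library as much as for a cell state. Clusters 4 and 5 were uneven too, with 148 (8.45%) and 19 (1.19%) cells in cluster 4. Cluster 5, led by Nts, Krt18 and Mme, held 59 (3.37%) and 302 (18.9%), and no alternative left it out. Smaller classes were melanocyte-like (22 and 56 cells, 9 of 9 markers), Schwann-like (59 and 36) and myeloid-like (36 and 20).

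The label under which these genes were assembled also names mesenchymal cells, and the data did not settle that name. The nearest cluster, cluster 6 with 43 and 29 cells, was led by Crabp1 and Twist2 and had 4 of 12 fibroblast markers but also 4 of 8 skeletal muscle markers at 5-fold. Crabp1 was at 6447 and 6405 CPM, Twist2 at 506 and 989 CPM and Pdgfrb at 23.2 and 15.6 CPM. Col1a1, at 48.9 and 14.4 CPM, was low but above its 0.592 and 0.626 CPM in keratin-rich cells. Some fibroblast markers were at or near 0: Lum had 2 and 0 UMIs, Dcn 6 and 0, Dpt 0 and 2, and Mfap5 0 in both libraries. The remaining fibroblast markers also had few UMIs: Col1a2 15 and 1, Col3a1 7 and 7, Pdgfra 10 and 2, and Col6a3 8 and 11. Their levels, 1.196 to 13.2 CPM, nonetheless lay above those in keratin-rich cells, 0 to 0.242 CPM, in both libraries. Of the muscle markers, Myog, Des and Actc1 rested largely on 1 cell labelled wild type. It held all 211 UMIs of Myog, all 83 of Des and 126 of 128 of Actc1, and Myog and Des were at 0 in the library labelled knockout. Chrna1 was more widely spread, with a UMI in 18 of 43 and 9 of 29 cells. It was at 106 and 22.7 CPM, against 0.31 and 0.032 CPM in keratin-rich cells, with 65 of its 132 UMIs labelled wild type in 1 cell. At Leiden resolution 1 the cells of cluster 6 fell into a cluster of 23 and 14 cells that met the fibroblast-like name (4 of 12 markers) and an unnamed one of 21 and 18 cells with 5 of 8 skeletal muscle markers. The whole is called cluster 6 throughout.

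Matricellular proteins are secreted into the extracellular matrix but act mainly on cells, through integrins, syndecans and receptors such as CD47, rather than as scaffold. Fibronectin forms the provisional matrix of a wound, over which keratinocytes migrate by integrins, and tenascin-C and periostin are deposited in healing skin. The CCN proteins bind integrins and growth factors, and Ccn1 and Ccn2 are standard readouts of the transcriptional coactivators YAP and TAZ.

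Of the 10 genes, 6 had a promoter window in the RefSeq table of build GRCm38.p6 (Tnc, Postn, Fbln1, Ccn1, Spp1 and Sparc), each with 250 bases before and 50 after a transcription start. Fn1, Thbs1, Ccn2 and Ccn4 had none. Where a gene had several windows, the one nearest to the start of its GENCODE principal transcript was used. The windows of Tnc and Postn are shown because these genes were higher in most keratin-rich clusters labelled knockout, and that of Ccn1 because it is the YAP and TAZ readout among the 6. They lie at chr4:64046966-64047265 on the minus strand, chr3:54360857-54361156 on the plus strand and chr3:145649936-145650235 on the minus strand. Capitals mark motif matches.
Tnc: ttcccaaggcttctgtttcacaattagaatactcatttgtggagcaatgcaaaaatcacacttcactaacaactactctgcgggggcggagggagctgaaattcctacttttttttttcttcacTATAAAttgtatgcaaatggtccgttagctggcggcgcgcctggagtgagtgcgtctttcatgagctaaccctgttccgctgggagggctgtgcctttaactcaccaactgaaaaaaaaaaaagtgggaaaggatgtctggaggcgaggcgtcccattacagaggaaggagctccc
Postn: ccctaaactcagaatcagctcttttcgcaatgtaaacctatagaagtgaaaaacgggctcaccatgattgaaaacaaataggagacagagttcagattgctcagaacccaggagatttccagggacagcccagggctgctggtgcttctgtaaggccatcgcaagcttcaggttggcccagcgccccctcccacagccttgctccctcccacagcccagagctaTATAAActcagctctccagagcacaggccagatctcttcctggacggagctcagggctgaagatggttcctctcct
Ccn1: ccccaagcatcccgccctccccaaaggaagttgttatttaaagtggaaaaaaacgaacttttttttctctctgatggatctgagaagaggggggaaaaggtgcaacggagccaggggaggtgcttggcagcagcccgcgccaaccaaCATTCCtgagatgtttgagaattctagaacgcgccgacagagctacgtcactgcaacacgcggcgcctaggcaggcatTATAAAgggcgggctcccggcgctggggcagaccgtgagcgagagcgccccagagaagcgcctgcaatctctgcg
The search was for the AP-1 motif TGANTCA, the TEAD motif GGAATG, the CArG box of serum response factor and, on the gene's own strand only, the TATA box TATAAA. Except for the TATA box, both strands were read. A TATA box match lay 126 bases before the start in Tnc, 26 bases before it in Postn and 25 bases before it in Ccn1. Ccn1 also held a TEAD match on the opposite strand 103 bases before the start, which the sequence shows as the complement. No match was found in the windows used for Fbln1, Spp1 and Sparc. That of Spp1 has its start at 104436192, 0 bases from a principal start. Another Spp1 window, with its start at 104435111 and 7 bases from a principal start, held a TATA box match 211 bases before the start. Of all 32851 windows of this length, 7.81% held the AP-1 motif, 14.7% the TEAD motif, 1.63% the CArG box and 8.32% the TATA box. A match is a run of letters, and no binding was measured.

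In keratin-rich cells 5 of the 10 genes were at least 1.5-fold higher in the library labelled knockout (Fn1, Tnc, Postn, Ccn4 and Spp1), against 7.74% of the 16757 genes with at least 20 UMIs. Only Fbln1 was 1.5-fold lower, against 17.5% of all genes. The other 4 (Thbs1, Ccn1, Ccn2 and Sparc) lay within 1.5-fold. The median log2 ratio of the 10 genes was 0.41, and that of all genes was −0.02. Since the genes were chosen with these values known, neither count is evidence about the group. Leaving out cluster 3, an alternative added after seeing the data, left 3 genes higher (Fn1, Tnc and Postn) and 2 lower (Fbln1 and Spp1).

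Fibronectin is the main adhesive glycoprotein of provisional matrix. Fn1 lies on chromosome 1 at 71585473 to 71653280. Its level in keratin-rich cells was 353 CPM in the library labelled wild type and 1036 CPM in the library labelled knockout, from 26217 and 64550 UMIs. The log2 ratio was 1.55 (1.53 to 1.57), and 1.30 with equal weight for each keratin-rich cluster. At 2000 UMIs per cell, Fn1 was seen in 36.3% and 66.9% of cells, so the higher level went with more cells that had a UMI. No single cell held more than 1.14% of the UMIs of a library.

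Fn1 was higher in the library labelled knockout in 7 of 7 keratin-rich clusters, and each interval excluded 0. In the suprabasal cluster 0, its lowest in both libraries, it was 48.3 and 231 CPM, a log2 ratio of 2.26 and the widest gap of the 7. In cluster 2, led by Epgn and Cnn1, it was 778 and 1672 CPM, its highest level in both. Cluster 3 gave the narrowest gap, with 584 and 1063 CPM and a log2 ratio of 0.86. Of its 416 Fn1 UMIs labelled wild type, 26.2% lay in 1 of 23 cells. Leaving out the cell with the most Fn1 UMIs in each library and cluster was an alternative added after seeing the data. The log2 ratio was then 1.11 in cluster 3, and cluster 1 had the narrowest gap, 0.83. In cells thinned to 8000 UMIs, the median Fn1 count per cell was 5 and 9 in cluster 2, 3 and 7 in cluster 5, and 1 and 6 in cluster 4. The distributions overlapped in every cluster: in cluster 2 the 90th percentile of the cells labelled wild type was 14 UMIs, above the median of those labelled knockout.

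**Figure D1:**
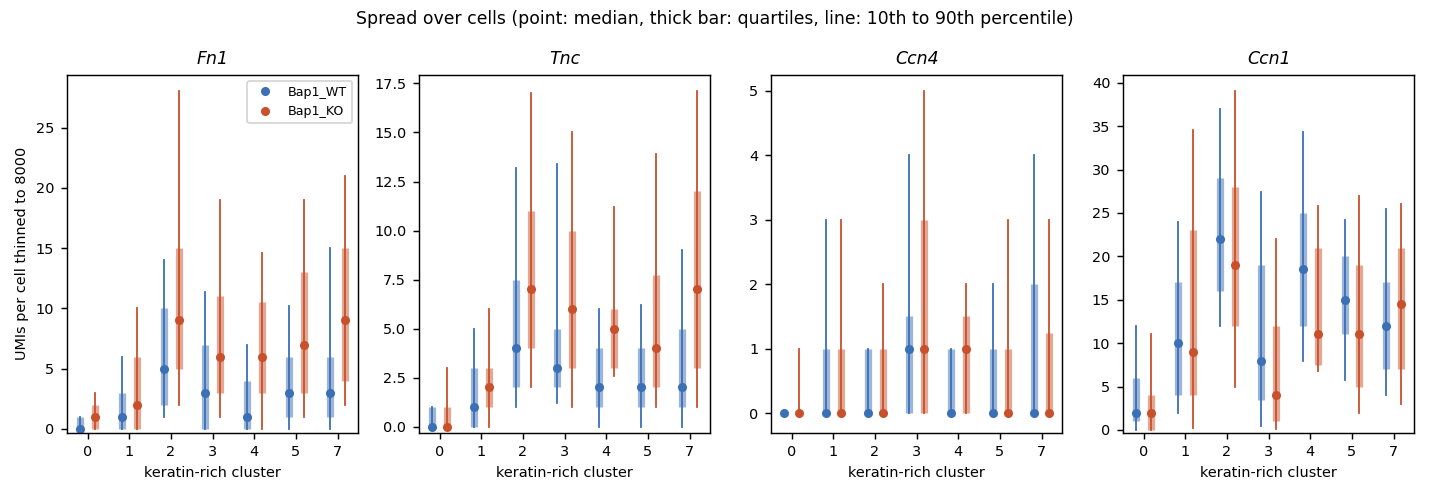
UMIs per cell of Fn1, Tnc, Ccn4 and Ccn1 after thinning to 8000 UMIs (vertical axes, each with its own range), for the 7 keratin-rich clusters in the libraries labelled wild type (blue) and knockout (red). Points are medians, thick bars quartiles and thin lines the 10th to 90th percentile over cells; for Fn1 the red median is above the blue one in every cluster, and the bars overlap.

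Tenascin-C is a large hexameric glycoprotein of wound edges that modulates adhesion to fibronectin. Tnc lies on chromosome 4 at 63959785 to 64047015, and its promoter window is the first printed above. Its keratin-rich level was 302 CPM in the library labelled wild type and 750 CPM in the library labelled knockout, a log2 ratio of 1.31 (1.29 to 1.33). With equal weight for each cluster the log2 ratio was 0.95. Like Fn1, Tnc was higher in 7 of 7 clusters, with log2 ratios from 0.53 in cluster 1 to 1.67 in cluster 0. Its levels ran from 46.2 and 147 CPM in cluster 0 to 671 and 1126 CPM in cluster 2. The suprabasal cluster was thus the lowest and cluster 2 the highest in both libraries, the same 2 ends as for Fn1. An overlapping gene, 8030451A03Rik, had 34 UMIs against 71146 for Tnc in all deposited cells.

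Periostin cross-links matrix and binds integrins and tenascin-C. Postn, on chromosome 3 at 54359267 to 54391041, was at 24.8 and 65.2 CPM in keratin-rich cells, a log2 ratio of 1.39 (1.31 to 1.47). It was higher in 6 of 7 clusters. The exception was cluster 3, where 105 and 92.8 CPM gave −0.18 with an interval from −0.51 to 0.17. There, 1 of the 23 cells labelled wild type held 40.0% of its 75 UMIs. Without the cell with the most Postn UMIs in each library and cluster, an alternative added after seeing the data, the log2 ratio was 0.40 in cluster 3 and −0.31 in cluster 1, so the count stayed at 6 of 7 with another exception. Cluster 3 alone held 55.8% of the Postn UMIs of all kept cells labelled knockout. With equal weight for each cluster the log2 ratio was 0.81. At 2000 UMIs per cell Postn was seen in only 3.66% and 11.0% of keratin-rich cells.

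Fibulin 1 is a calcium-binding glycoprotein of basement membranes and elastic fibres. Fbln1, on chromosome 15 at 85205949 to 85286294, was the member that was lower: 13.9 CPM (1034 UMIs) in cells labelled wild type and 3.52 CPM (219 UMIs) in cells labelled knockout, a log2 ratio of −1.99 (−2.20 to −1.77). Much of its RNA sat in the cycling cluster 4, at 57.9 and 50.2 CPM, against at most 16.3 CPM in any other keratin-rich cluster. That cluster held 47.0% of all Fbln1 UMIs of the kept cells labelled wild type. It made up 8.45% of the keratin-rich cells of the library labelled wild type and 1.19% of those labelled knockout.

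Within cluster 4 the log2 ratio of Fbln1 was −0.20, with an interval from −0.62 to 0.19 that includes 0. Intervals lay below 0 in 3 clusters (0, 2 and 5) and above 0 in none. With equal weight for each cluster the log2 ratio was −0.73, still past 1.5-fold. Cluster 3, with 1 and 37 UMIs, held almost no Fbln1 in either library.

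Thrombospondin 1 is a trimeric matricellular protein that binds CD47 and CD36 and activates latent TGF-beta. Thbs1, on chromosome 2 at 118111876 to 118127133, was at 656 and 718 CPM in keratin-rich cells, a log2 ratio of 0.13. With equal weight for each cluster it was −0.19. The clusters went in both directions. In cluster 2 it was 724 and 399.7 CPM, a log2 ratio of −0.86, and in cluster 7 it was 1058 and 636 CPM, a log2 ratio of −0.73. In cluster 0 it was instead higher, at 397 and 541 CPM, with a log2 ratio of 0.45. Cluster 7 had the lowest depth of the keratin-rich clusters, with a median of 18944 UMIs per cell.

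Ccn1 (CYR61) and Ccn2 (CTGF) are immediate-early matricellular proteins that signal through integrins. Ccn1, on chromosome 3 at 145646971 to 145649985, was at 1623 and 1365 CPM in keratin-rich cells, a log2 ratio of −0.25. It was lower in 5 clusters and higher in 2, and the lowest ratio, −0.73, was that of cluster 3 at 1629 and 983 CPM. Without cluster 3 its log2 ratio was 0.01, and with equal weight for each cluster it was −0.20. The median count per cell thinned to 8000 UMIs was 8 and 4 in cluster 3, and 22 and 19 in cluster 2. Like Fn1 and Tnc, Ccn1 was lowest in the suprabasal cluster 0, at 652 and 485 CPM, and highest in cluster 2, at 2729.8 and 2570.2 CPM.

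Ccn2, on chromosome 10 at 24595442 to 24598683, was at 375 and 367 CPM, a log2 ratio of −0.03. In clusters 0 and 2 it went the same way as Thbs1. It was 623 and 327 CPM in cluster 2, a log2 ratio of −0.93, and 366 and 526 CPM in cluster 0, a log2 ratio of 0.52. In cluster 3 it was 361 and 184 CPM, a log2 ratio of −0.97. Over the 7 clusters Ccn2 was higher in 3 and lower in 4, and with equal weight for each cluster the log2 ratio was −0.33. Without cluster 3 the value of the summed counts was 0.40. Such a sum also carries the unequal cluster shares of the 2 libraries. Cluster 5, at 617 and 660 CPM, made up 3.37% and 18.9% of keratin-rich cells. Cluster 1, at 269 and 308 CPM, made up 42.8% and 3.32%. The part of these shares in the 0.40 was not tested. An overlapping gene, Gm15270, had 355 UMIs against 51457 for Ccn2.

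Ccn4 (WISP1) is a CCN protein first described as a target of Wnt signalling. Ccn4, on chromosome 15 at 66891369 to 66923201, differed from the other 2 CCN genes in being higher in the library labelled knockout, at 72.8 and 158 CPM, a log2 ratio of 1.12 (1.07 to 1.16). It was higher in 6 of 7 clusters, from 0.33 in cluster 1 to 1.30 in cluster 4, and −0.08 in cluster 7. In the library labelled knockout cluster 3 had its highest level, 252 CPM. In the library labelled wild type cluster 3 was at 160.0 CPM (132 to 192) from 114 UMIs, 32.5% of them in 1 of 23 cells, an interval that overlapped that of cluster 7 at 131 CPM (121 to 143). With equal weight for each cluster the log2 ratio was 0.73, still past 1.5-fold. In summed counts without cluster 3 it was 0.36, which ends the 1.5-fold call, and without cluster 1 it was 1.70. Both sums also carry the unequal cluster shares of the 2 libraries.

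**Figure D2:**
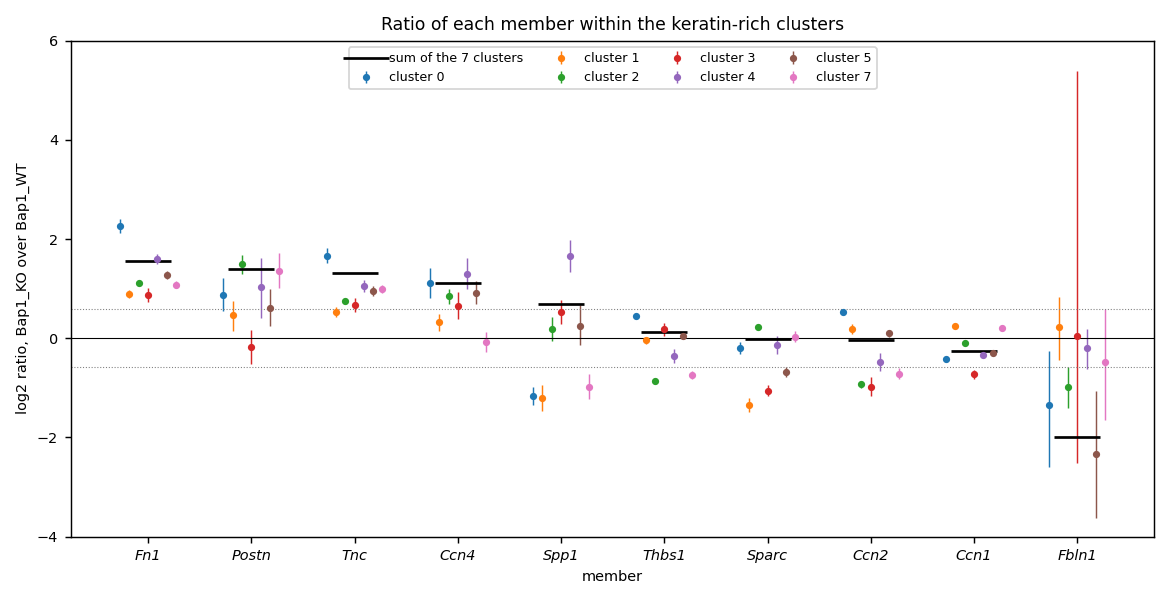
Log2 ratio of the library labelled knockout over the library labelled wild type (vertical axis) for each gene in the 7 keratin-rich clusters (coloured points, exact 95% intervals of counting error) and in their sum (black line); dotted lines mark 1.5-fold. Fn1 and Tnc lie above 0 in 7 of 7 clusters, Postn and Ccn4 in 6 of 7, and Spp1 spreads from −1.20 to 1.66.

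Osteopontin is a secreted phosphoprotein that binds integrins and CD44. Spp1, on chromosome 5 at 104435111 to 104441053, was at 89.2 and 143 CPM in keratin-rich cells, a log2 ratio of 0.68 (0.63 to 0.73). That direction rested on cluster 3, with 205 and 294 CPM, which held 55.2% of the Spp1 UMIs of all kept cells labelled knockout. Of the 146 UMIs of cluster 3 labelled wild type, 37.7% lay in 1 of 23 cells. Clusters 0, 1 and 7 went the other way, with log2 ratios of −1.16, −1.20 and −0.98. Cluster 4 had the highest ratio, 1.66, which became 0.13 without the cell with the most Spp1 UMIs in each library. Without cluster 3 the log2 ratio was −1.22, and with equal weight for each cluster it was −0.10. Spp1 was also uneven among cells: 1 cell labelled wild type held 11.7% of the keratin-rich UMIs of its library, and the median count per cell thinned to 8000 UMIs was 0 in every keratin-rich cluster.

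SPARC is a collagen-binding glycoprotein that many mesenchymal and neural crest cells secrete. Sparc, on chromosome 11 at 55394159 to 55420080, was at 384 and 379 CPM in keratin-rich cells, a log2 ratio of −0.02 with an interval that includes 0. Single clusters differed more. Sparc was lower in 5 of 7 clusters and higher in 2, with 4 intervals below 0 and 1 above. With equal weight for each cluster the log2 ratio was −0.45. In cluster 1 Sparc was at 426 and 167 CPM, a log2 ratio of −1.35, and in cluster 3 at 946 and 454 CPM, a log2 ratio of −1.06.

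The 23 cells of cluster 3 labelled wild type stood apart in pigment RNA. All 9 of 9 melanocyte markers were seen there, with a summed level of 5798 CPM, against 439 CPM in the 712 cells labelled knockout and 261 to 369 CPM in the other keratin-rich clusters of both libraries. Sparc and Spp1 were both high in melanocyte-like cells labelled wild type, and the part of this RNA in the cluster 3 values of any of the 10 genes was not tested. In keratin-rich cells as a whole, 11 of 12 fibroblast markers had a UMI in the library labelled wild type, with a summed level of 17.1 CPM and Dpt at 0. In the library labelled knockout it was 7 of 12 with 9.57 CPM, and Col3a1, Lum, Dpt, Col6a3 and Mfap5 were at 0.

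**Figure D3:**
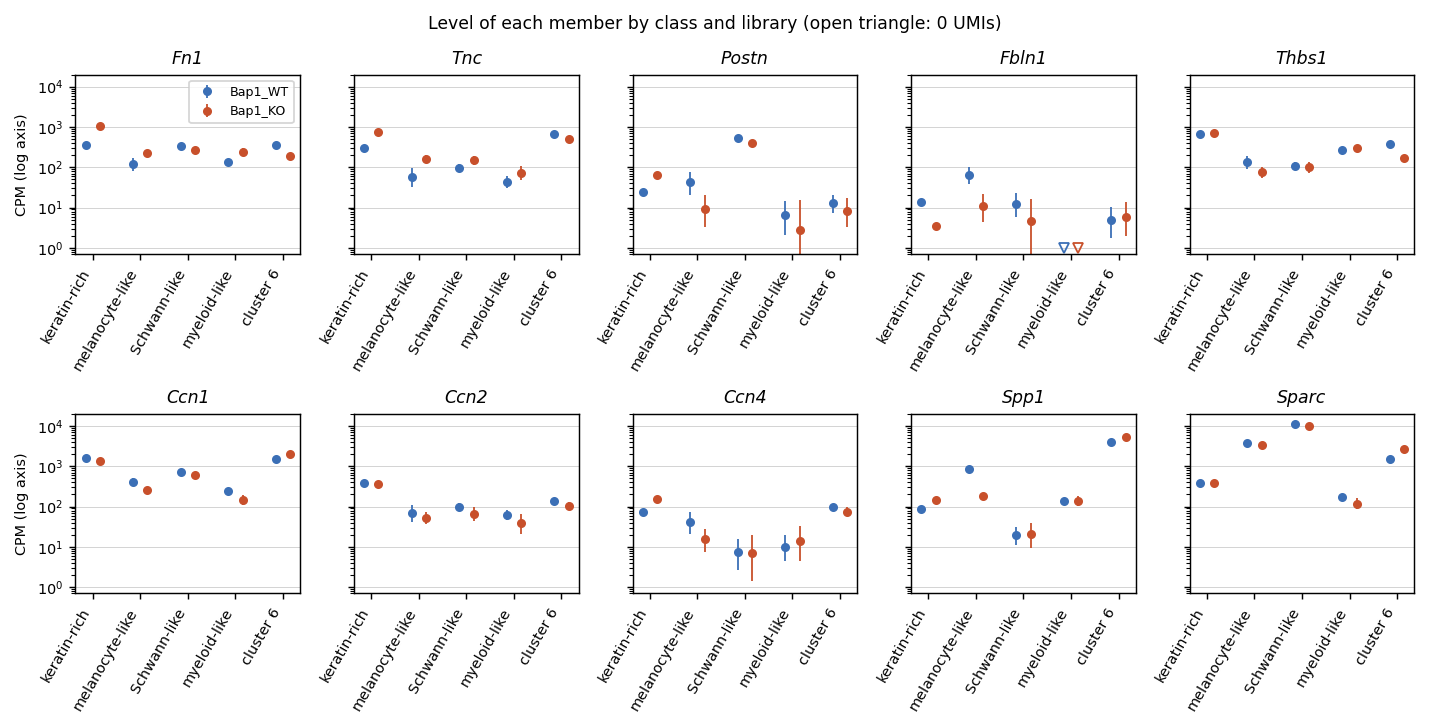
Level of each gene in CPM (vertical log axis) in 5 classes of cells for the libraries labelled wild type (blue) and knockout (red), with exact 95% Poisson intervals of counting error; open triangles stand for 0 UMIs. Sparc is highest in Schwann-like cells, at 11166 and 10094 CPM, and Spp1 in cluster 6, at 3944 and 5421 CPM.

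The melanocyte-like cells were few, and 9 of the 10 genes reached 20 UMIs in them (Postn, with 11 and 6, did not). The count of genes at least 1.5-fold higher in the library labelled knockout was 2 (Fn1 and Tnc), against 13.6% of the 5903 genes with at least 20 UMIs, and the count of lower genes was 5 (Fbln1, Thbs1, Ccn1, Ccn4 and Spp1), against 13.2%. The median log2 ratio of the 9 genes was −0.69, and that of all genes was 0.01. Without the cell with the most UMIs of each gene in each library, 1 gene was higher and 1 lower. The median depth was 10993 and 10126 UMIs per cell.

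Sparc was the member with the most UMIs in melanocyte-like cells, 978 and 2165. Its level was 3735 and 3332 CPM, which is 9.73 and 8.78 times its level in keratin-rich cells. The log2 ratio between the libraries was −0.17 (−0.27 to −0.05). Spp1 was at 863 CPM from 226 UMIs and 186 CPM from 121 UMIs, a log2 ratio of −2.21, and −1.74 without the top cells. Against keratin-rich cells it was 9.68 times higher in the library labelled wild type and 1.30 times higher in the library labelled knockout.

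Fn1 in melanocyte-like cells came from 31 and 144 UMIs, at 118 and 222 CPM. A single cell labelled knockout held 54.2% of the latter, and without the top cells the log2 ratio went from 0.90 to 0.18. Tnc had 15 and 107 UMIs, with 47.7% of the latter in 1 cell. Fbln1 was at 64.9 CPM from 17 UMIs and 10.8 CPM from 7, and Thbs1 at 134 and 75.4 CPM. Of the 35 Thbs1 UMIs labelled wild type, 45.7% lay in 1 cell, and without the top cells its log2 ratio was −0.11.

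RNA free in the suspension also reaches droplets of other cells. Krt14, a keratin of basal keratinocytes, gave a rough reference for it: its level in melanocyte-like cells was 8.46% and 6.29% of that in keratin-rich cells. Krt14 was highest in cluster 0, at 14056 and 15387 CPM, against 2022 to 4699 CPM in the other keratin-rich clusters. Fn1, Tnc and Ccn1 were lowest in cluster 0, so Krt14 is an unlike reference for them. Fn1 stood at 33.5% and 21.4% of its keratin-rich level, Tnc at 18.9% and 22.0%, Ccn1 at 25.7% and 18.9%, and Ccn4 at 57.7% and 9.75%. Fn1 in keratin-rich cells was higher in the library labelled knockout, as Fn1 in melanocyte-like cells was, and the part of free RNA in the latter was not tested.

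In cluster 6, where 9 genes reached 20 UMIs (Fbln1, with 6 and 5, did not), the count of genes 1.5-fold higher in the library labelled knockout was 1 (Sparc), against 8.22% of 7625 genes, and the count of lower genes was 3 (Fn1, Postn and Thbs1), against 18.6%. The median log2 ratio of the 9 genes was −0.41, and that of all genes was −0.05. Sparc was at 1478 and 2709.5 CPM, a log2 ratio of 0.87. Fn1 was at 350.3 and 196 CPM, a log2 ratio of −0.84, and Thbs1 at 369 and 171 CPM, a log2 ratio of −1.11. Fn1 differed between the cells of cluster 6 with and without a Crabp1 UMI. In those with one it was at 428 and 205 CPM, and in those without one at 8.64 CPM from 2 UMIs and 172 CPM from 40 UMIs, 57.5% of the latter in 1 cell. The share of cells with an Fn1 UMI went the other way from its level, 29 of 43 (67.4%) and 26 of 29 (89.7%), or 27.9% and 37.9% at 2000 UMIs per cell. In the fibroblast-like cluster at Leiden resolution 1 alone, an alternative added after seeing the data, the log2 ratio of Fn1 was −1.06 and that of Thbs1 −1.28. The Postn ratio, −0.62, came from 16 and 7 UMIs, its interval included 0, and in that fibroblast-like cluster it was 0.05.

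Spp1 in cluster 6 was at 3944 and 5421 CPM, 44.2 and 37.9 times its level in keratin-rich cells. It was very uneven, with 58.6% of the 4532 UMIs labelled knockout in 1 cell. Without the top cells the log2 ratio of 0.46 became −0.51. All but a few of these UMIs lay in the cells of cluster 6 with a Crabp1 UMI: 4912 in 29 such cells and 7 in the 14 others of the library labelled wild type, and 4526 in 16 cells and 6 in 13 others of the library labelled knockout. Cells with a Crabp1 UMI were also deeper, with medians of 39580 and 45231 UMIs against 13413 and 14264. Krt14 was at 26.1% and 24.7% of its keratin-rich level in cluster 6, a larger share than in the other small classes, while Spp1 and Sparc were above their keratin-rich levels in both libraries.

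Schwann-like cells, with the neural crest genes Ngfr, Scn7a and Fabp7 in the lead, had the highest level of Sparc and of Postn in both libraries. Sparc was at 11166 and 10094 CPM, 29.1 and 26.6 times the keratin-rich level, and it was seen in 100% of these cells at 2000 UMIs per cell. In myeloid-like cells, which are deeper (medians of 19443 and 16120 UMIs, against 12363 and 11069), it was seen at that depth in 5 of 36 and 3 of 20 cells. Postn was at 529 and 403 CPM in Schwann-like cells, 21.3 and 6.18 times its keratin-rich level. These cells gave 18.7% of all Postn UMIs of the kept cells labelled wild type and 4.14% of those labelled knockout, although the ratio within them was −0.39.

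Ccn4 and Fbln1 had 10 UMIs or fewer per library in both Schwann-like and myeloid-like cells. Ccn4 in Schwann-like cells came from 6 and 3 UMIs, at 10.1% and 4.35% of its keratin-rich level, where Krt14 stood at 7.05% and 7.12%. In myeloid-like cells Fbln1 had 0 UMIs in 36 and 20 cells, where the floor of 3 counts stands for 3.84 and 8.41 CPM. Thbs1 in myeloid-like cells was at 267 and 294 CPM, 40.7% and 41.0% of its keratin-rich level against 6.38% and 6.59% for Krt14. Postn there had 5 UMIs and 1 UMI.

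The order of the classes for Sparc was the same in both libraries: Schwann-like, melanocyte-like, cluster 6, keratin-rich and myeloid-like, with no overlap of neighbouring counting intervals. For Fn1 the order changed. In the library labelled wild type the levels in keratin-rich cells (353 CPM), cluster 6 (350.3 CPM) and Schwann-like cells (338 CPM) had overlapping intervals. In the library labelled knockout keratin-rich cells (1036 CPM) stood above Schwann-like (263 CPM), myeloid-like (238 CPM), melanocyte-like (222 CPM) and cluster 6 cells (196 CPM).

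The genes were also compared over single cells within 1 cluster and 1 library, as log(count + 1) after thinning each cell to 8000 UMIs. Only genes with a median count of at least 1 and sets of at least 50 cells were used. Cells of 1 library share its preparation, so these correlations are a description. Fn1 and Tnc had the highest Pearson r of the pairs with several sets, with a median of 0.47 over 10 sets and a range from 0.21 in cluster 5 labelled wild type to 0.62 in cluster 7 labelled knockout. The pair Fn1 and Ccn2 had a median of 0.29, Thbs1 and Ccn2 0.26, and Ccn1 and Ccn2 0.20. Ccn1 and Sparc had a median of −0.08 over 10 sets, with values on both sides of 0.

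**Figure D4:**
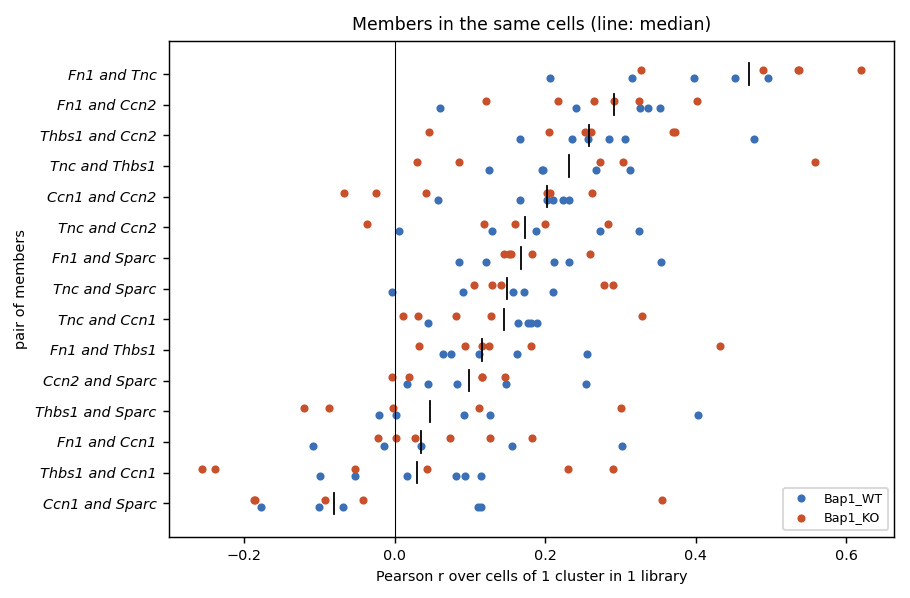
Pearson r (horizontal axis) between log(count + 1) of pairs of genes over the cells of 1 keratin-rich cluster in 1 library, thinned to 8000 UMIs. Each point is 1 cluster labelled wild type (blue) or knockout (red), and black lines are medians. The pair Fn1 and Tnc has the highest median, 0.47, and lies above 0.2 in every set.

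Across 21 profiles, each the sum of a cluster or class in 1 library, r of log2(CPM + 1) was 0.87 for Fn1 and Tnc and 0.83 for Thbs1 and Ccn2, while Thbs1 and Sparc gave −0.70. The same profiles ranked 12220 other genes by their likeness to each member, and these ranks say nothing of shared control. Tnc was most like Bmp1 (0.91), which encodes a procollagen-processing protease, and Lamb1, a laminin chain. Fn1 was most like Fgf21 (0.83), Vasp and Scx. Postn was nearest to Pappa (0.94), Scube3 and Sulf2, and Sparc to P3h1 (0.95), a collagen prolyl hydroxylase.

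Ccn2 was most like the desmoplakin gene Dsp (0.97) and the integrin gene Itgb6, and Ccn1 like Ctps (0.96) and the calponin gene Cnn2. Thbs1 was most like Sgk1 (0.94) and Efnb2, Ccn4 like Msi1 (0.90) and Kctd13, and Fbln1 like Pcbp3 (0.88), Anapc11 and Lsm2. The highest value for Spp1 was lower, 0.81 with Rpl39l.

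Lists of related genes were read in keratin-rich cells in the same way, as counts past 1.5-fold against the 7.74% higher and 17.5% lower of all genes. Of 26 relatives in the same protein families, only 12 reached 20 UMIs, 5 of them higher and 1 lower in the library labelled knockout, with a median log2 ratio of 0.39. All 5 higher relatives had few UMIs and lay at or below 0.867 CPM in both libraries. Among them, Ccn5 (4 and 21 UMIs) and the testican gene Spock2 (11 and 42 UMIs) had the highest log2 ratios, 2.65 and 2.19. Efemp1, which encodes fibulin 3, had the lowest, −1.49, at 23.4 and 8.35 CPM, and was lower in 7 of 7 clusters. Tgfbi was next at −0.55. The relative with the most UMIs, Efemp2 (fibulin 4), was even, at 71.5 and 70.4 CPM.

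All 21 receptor genes were measured, 4 higher and 4 lower, with a median log2 ratio of 0.05. The integrin gene Itgb3 had a log2 ratio of 1.47 at 0.821 and 2.28 CPM, and Cd36 one of 1.53 from 7 and 17 UMIs. Itga2, a collagen receptor chain, had −1.76 at 1.20 and 0.353 CPM, and Itga8, a chain of a receptor for fibronectin and osteopontin, −1.29. Sdc1, with the most UMIs of the list, was at 501 and 519 CPM. Chosen after their values were seen, Itga5, the alpha chain of the classical fibronectin receptor, was at 33.9 and 53.4 CPM and higher in 7 of 7 clusters, and Cd47, the thrombospondin receptor, at 112 and 67.7 CPM and lower in 6 of 7.

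Of 20 other YAP and TAZ targets, 2 were higher (Fjx1, 1.18, and Ankrd1, 0.99) and 3 lower, with a median of −0.19. Ankrd1 encodes a mechanically responsive ankyrin repeat protein and was at 80.6 and 160.1 CPM, higher in 7 of 7 clusters. The tissue factor gene F3, at 1948 and 828 CPM, had −1.23 and Igfbp3 −1.33, both lower in 7 of 7 clusters. Igfbp3 was among the genes that led cluster 1. The other 15 lay within 1.5-fold, as Ccn1 and Ccn2 did. Against the 7.74% higher and 17.5% lower of all genes, these counts are not read as a result about the list.

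Of 20 genes of the TGF-beta pathway, 4 were higher and 1 lower, with a median of 0.06. Ltbp2, a latent TGF-beta binding protein, had 2.27 at 0.458 and 2.22 CPM, and the ligand gene Tgfb3 had 0.93 at 4.93 and 9.36 CPM. Ltbp4 had −1.12. Pmepa1, a TGF-beta target with the most UMIs of the list, was at 313 and 335 CPM.

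Of 17 targets of serum response factor and its MRTF coactivators, 3 were higher and 2 lower, with a median of 0.16. The contractile genes Myl9 (173 and 433 CPM, log2 ratio 1.33) and Acta2 (1349 and 2698 CPM, log2 ratio 1.00) were higher, and Tpm1 was at 4650.4 and 5204 CPM. The immediate-early genes Fos (79.4 and 32.7 CPM) and Egr1 (33.1 and 14.1 CPM) were lower in 7 of 7 clusters, with log2 ratios of −1.28 and −1.23.

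Of 30 collagens and matrix assembly genes, 25 reached 20 UMIs, 4 higher and 3 lower, with a median of 0.08. Fbn1, which encodes the microfibril protein fibrillin 1, had 2.18 at 1.31 and 5.91 CPM and was higher in 7 of 7 clusters, and the lysyl oxidase gene Loxl2 came next, at 0.404 and 1.14 CPM. Col6a1 (−1.18) and Loxl4 (−1.17) were lowest. Serpinh1, the collagen chaperone, had the most UMIs, at 639.9 and 781 CPM. The fibrillar collagen genes Col1a2 and Col3a1 were near 0 in keratin-rich cells, the first with 5 and 4 UMIs and the second with 1 and 0.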

How the data were processed

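For each library the authors deposited a matrix of whole numbers, taken here as UMI counts of every gene in every cell. The submitters' processing notes name Cell Ranger 2.1, Seurat 2.0 and build mm10. The way cells were called and the use of intronic or antisense reads: not given in the sources used here. Symbols and coordinates came from the RefSeq table of GRCm38.p6, which named 31049 of the 36528 identifiers. The other 5479, with 2.67% of UMIs, stayed in the totals.

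Cells with at least 500 genes and at most 10% mitochondrial UMIs were kept, which removed 13 and 16. Scrublet (assumed rate 0.02) marked 2 (0.104%) and 6 (0.341%) as doublets, and these were left out. Cells of both libraries were clustered together, after a log transform of counts per 10000, on 2000 variable genes that excluded the 10 members, with 30 principal components, 15 neighbours and Leiden resolution 0.5. A class name other than keratin-rich needed 3 markers at 5-fold, and keratin-rich was the default. Counts were summed per class and library. With 1 library per genotype there is no test, p-value or standard error, since cells are not replicates. Sums have exact Poisson, ratios conditional exact and shares Clopper-Pearson intervals at 95%. UMI floors are 3 counts. A gene counted as higher or lower at 1.5-fold with at least 20 UMIs.

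The members, markers and lists were chosen with earlier results of these data known. All members are named whatever their value. From each list, the 2 highest and 2 lowest log2 ratios and the gene with the most UMIs are named. Genes most like a member are the 3 with the highest Pearson r of log2(CPM + 1) over sums of at least 20 cells, among genes with at least 100 UMIs. Ratios and counts were tested on simulated counts. Alternatives were stricter cell filters, doublets kept, other Leiden resolutions (0.3 and 1), members among the variable genes, equal weight per cell or cluster, thinning, centring on the median gene, leaving out top cells, a common UMI minimum of 10065, a minimum of 100 UMIs and a 2-fold limit. Added after seeing the data were leaving out clusters 1, 3, 4 or 7, splitting cluster 6, and leaving out the top cell of each cluster. Clustering ran in scanpy 1.11.5 with igraph 0.11.9 and scikit-learn 1.9.0. Intervals came from scipy 1.17.1, tables from pandas 2.3.3 with numpy 2.4.6, and figures from matplotlib 3.10.9, all under Python 3.11.15.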

Additional observations from a re-analysis of the deposited data

Results flagged for a closer look

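In 3 cases a gene lay past 1.5-fold in keratin-rich cells and past it in the opposite direction in a smaller class, with at least 20 UMIs over both libraries and a counting interval that excluded 0 in each class. The log2 ratio of Fn1 was −0.84 in cluster 6 and 1.55 in keratin-rich cells. Within cluster 6 the level was 428 and 205 CPM in cells with a Crabp1 UMI, but 8.64 and 172 CPM, from 2 and 40 UMIs, in cells without one. Cells with an Fn1 UMI were 67.4% and 89.7% of cluster 6. That of Ccn4 was −1.45 in melanocyte-like cells, from 11 and 10 UMIs, and 1.12 in keratin-rich cells. That of Spp1 was −2.21 in melanocyte-like cells and 0.68 in keratin-rich cells, where it became −1.22 without cluster 3. With 1 library per genotype the difference between the classes was not tested in any of the 3.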

How the results depend on the processing

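No paired analysis was possible because each genotype has 1 library. In keratin-rich cells 143 of 150 log2 ratios under the alternatives had the sign of the value reported, in melanocyte-like cells 99 of 100 and in cluster 6 124 of 130. At Leiden resolution 0.3 a cluster of 383 and 402 cells was unnamed, with 3 of 8 smooth muscle markers at 5-fold. Its cells were counted as keratin-rich. Among values past 1.5-fold, the sign reversed for Spp1 in keratin-rich cells, to −0.10 with equal weight per cluster and to −1.22 without cluster 3. It also reversed for Thbs1 in melanocyte-like cells, to 0.0206 with stricter cell filters, and for Postn in cluster 6, to 0.15 with cells thinned to 8000 UMIs and to 0.0483 in the fibroblast-like cluster at Leiden resolution 1. The cause was not tested in any of these. Without cluster 3, 3 genes were higher and 2 lower in keratin-rich cells, in place of 5 and 1. In melanocyte-like cells the count of higher genes went from 2 to 1 with thinning, without the top cells and at 2-fold. The count of lower genes there went from 5 to 2 with stricter cell filters, 3 with thinning, 1 without the top cells, 2 at a minimum of 100 UMIs and 3 at 2-fold. In cluster 6 the count of higher genes went from 1 to 0 at 2-fold and to 2 in cells with a Crabp1 UMI, and the count of lower genes from 3 to 1 with thinning and to 1 at 2-fold. The common minimum of 10065 UMIs left out 66 cells labelled knockout, 28 of them melanocyte-like, and 0 labelled wild type. Without the top cell of each library and cluster, the number of keratin-rich clusters with a higher level labelled knockout went from 2 to 0 for Fbln1 and from 2 to 1 for Sparc, and was the same for the other 8 genes. Depth limits the small classes, where several members rest on fewer than 20 UMIs in a library.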
